A study of Homo sapiens with 8 samples.

Results

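Processed pseudogenes are copies of messenger RNAs that were reverse transcribed and inserted elsewhere in the genome. Of the 12109 transcripts in the authors' deposited table of translation efficiency, 502 (4.15%) were processed pseudogene transcripts. A transcript was taken where its identifier matched a GENCODE release 29 transcript of the type processed pseudogene (468 transcripts) or transcribed processed pseudogene (33 transcripts), or, with no match, where its entry was named by that type word (1 transcript). The measurements came from human hepatic stellate cells, which deposit collagen in the injured liver and are labelled a cell line and were grown in DMEM with 10% FBS. Control cells (genotype WT) carried the treatment dsi-control, and knockdown cells (genotype LARP6 kd) the treatment dsiLARP6. Each was measured by RNA-seq and by ribosome profiling in 2 libraries, giving 8 libraries in 4 groups. LARP6 is an RNA-binding protein of the La-related family, known for binding the messages of type I collagen.

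Translation efficiency is the abundance of ribosome-protected RNA fragments, called footprints, relative to the RNA of the same transcript. For each transcript the authors' deposited table gives the log2 efficiency in the knockdown, the log2 change of efficiency in the knockdown over the control, and p-values. On this scale 0 lies near the middle of all transcripts, whose median knockdown log2 efficiency was 0.0078. The table combines the libraries of a group, so no value per library, no spread over replicates and no sequencing depth can be set beside the values below. Nothing in the labels says that the replicates were separate cultures, and the p-values may therefore measure technical spread only. For LARP6 itself the authors' deposited table lists a log2 change of 0.07 and an adjusted p of 0.981, a ratio of efficiencies that does not check the knockdown. Of 14 stellate cell markers, 11 had an entry (LRAT, DES and RGS5 had none), against 2 of 7 hepatocyte, 1 of 4 endothelial, 2 of 4 leukocyte and Kupffer cell, and 3 of 4 biliary markers.

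A processed pseudogene arises when the machinery of a LINE-1 retrotransposon copies a spliced message back into DNA. The copy therefore lacks the introns and usually the promoter of its source gene, and over time collects substitutions, stop codons and frameshifts, which is why annotation treats it as non-coding. Abundant housekeeping messages, above all those of ribosomal proteins, have left many copies in the human genome. A young copy can be nearly identical to its source, so that a short read may match both.

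The sequences below show how close the copies are to their source genes. They were read from GENCODE release 29 transcripts on GRCh38, 5′ to 3′ on the transcript's strand, and capitals mark the bases at which a copy and its source differ. The first set is MT2P1, a copy with a called change of efficiency, printed whole (chr4:68376323-68376505, plus strand) beside the coding sequence of MT2A (chr16:56608656-56609351, plus strand, spliced across introns). MT2A encodes a metallothionein, a small cysteine-rich protein that binds zinc and copper, and the copy differs from it at 5 of 183 bases.
MT2A: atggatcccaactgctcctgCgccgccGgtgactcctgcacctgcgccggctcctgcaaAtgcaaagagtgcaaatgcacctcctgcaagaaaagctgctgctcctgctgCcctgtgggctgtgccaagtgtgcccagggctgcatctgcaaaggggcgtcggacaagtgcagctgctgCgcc
MT2P1: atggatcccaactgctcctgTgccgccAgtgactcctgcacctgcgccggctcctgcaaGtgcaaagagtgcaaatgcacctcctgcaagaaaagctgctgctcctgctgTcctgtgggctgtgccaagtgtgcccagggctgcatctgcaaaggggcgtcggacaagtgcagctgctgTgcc
The second called copy, AL590867.2, comes from RPL27A, which encodes a protein of the large ribosomal subunit. The 120 bases shown are the stretch of the copy with the most differences, which number 5 (AL590867.2, chr6:153282361-153282480, minus strand; RPL27A, chr11:8684828-8685732, plus strand, spliced across introns).
RPL27A: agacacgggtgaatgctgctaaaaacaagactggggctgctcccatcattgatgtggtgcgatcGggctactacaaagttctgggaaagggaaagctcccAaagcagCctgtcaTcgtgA
AL590867.2: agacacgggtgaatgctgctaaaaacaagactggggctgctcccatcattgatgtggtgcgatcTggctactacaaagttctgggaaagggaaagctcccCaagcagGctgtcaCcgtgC
ANXA2, which encodes the membrane-binding protein annexin A2, has a nearly identical and a more diverged copy among the measured transcripts. The 90 bases shown hold 1 difference in ANXA2P2 (chr9:33624274-33624363, plus strand) and 8 in ANXA2P3 (chr10:64825572-64825661, plus strand) from ANXA2 (chr15:60382400-60386075, minus strand, spliced across introns), where the capitals of ANXA2 are those that differ from ANXA2P3.
ANXA2: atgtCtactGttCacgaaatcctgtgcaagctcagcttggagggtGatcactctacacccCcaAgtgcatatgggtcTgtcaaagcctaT
ANXA2P2: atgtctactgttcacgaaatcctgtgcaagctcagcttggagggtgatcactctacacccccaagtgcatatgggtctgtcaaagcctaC
ANXA2P3: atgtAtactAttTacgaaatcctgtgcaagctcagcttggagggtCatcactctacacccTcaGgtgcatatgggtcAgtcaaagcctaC
BZW1, which encodes a regulator of translation initiation, likewise has 2 measured copies. BZW1P2 (chr3:116646574-116646663, minus strand) does not differ from BZW1 (chr2:200817197-200818018, plus strand, spliced across introns) in these 90 bases, and BZW1P1 (chr3:172426513-172426602, minus strand) differs at 7.
BZW1: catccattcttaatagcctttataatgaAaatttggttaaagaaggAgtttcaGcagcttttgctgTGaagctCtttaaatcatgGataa
BZW1P2: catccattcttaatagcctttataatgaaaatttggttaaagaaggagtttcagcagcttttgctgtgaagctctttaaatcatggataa
BZW1P1: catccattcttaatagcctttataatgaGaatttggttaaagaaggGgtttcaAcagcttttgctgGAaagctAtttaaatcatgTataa
The last pair shows the first 156 of the 177 bases of MT1P3 (chr20:35218009-35218164, plus strand), a copy of the metallothionein gene MT1E (chr16:56625852-56626941, plus strand, spliced across introns), with 5 differences in this stretch. Over the whole copy the identity was lower, at 91.9%.
MT1E: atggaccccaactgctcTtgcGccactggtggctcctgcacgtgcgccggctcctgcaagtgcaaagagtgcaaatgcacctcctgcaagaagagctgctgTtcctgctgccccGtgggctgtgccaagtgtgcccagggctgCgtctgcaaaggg
MT1P3: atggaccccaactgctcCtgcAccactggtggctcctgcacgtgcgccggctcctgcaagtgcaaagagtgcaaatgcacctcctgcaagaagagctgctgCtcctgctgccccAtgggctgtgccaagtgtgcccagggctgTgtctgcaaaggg

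The measured copies were a small and uneven sample of those annotated. GENCODE release 29 holds 10674 processed pseudogene transcripts of both types, of which 501 (4.69%) had an entry in the authors' deposited table. Measured copies were longer, with a median of 937 bases (range 113 to 6232) against 529.5 bases over all annotated ones. Copies of ribosomal protein genes, which make up 22.5% of annotated copies named after a source gene (1139 of 5064), were 3.97% of such measured copies (11 of 277). Of the annotated ribosomal protein copies 0.966% were measured, against 6.78% of the others. Chromosome X held 50 of the measured copies (9.98%), compared with 6.77% of the annotated ones.

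Most measured copies kept the form of a retrocopied message. A single exon was annotated for 461, 2 exons for 33 and 3 exons for 7. A source gene could be assigned to 501 of them, from the symbol for 277 and by sequence alignment for 224, and these copies came from 472 genes. The median identity to the source was 94.7% (quartiles 92.6% and 96.7%, range 66.3% to 100%), and 451 copies aligned over at least 99% of their length. The longest stretch without a difference had a median of 90 bases. Of all copies 76 lay within a protein-coding gene on the same strand, and 7 overlapped a coding gene's exon on that strand. GC content had a median of 46.8%, against 49.3% over all transcripts of the table.

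After LARP6 knockdown, the translation efficiency of 2 processed pseudogene transcripts rose and none fell at an adjusted p under 0.05. MT2P1, the copy of the metallothionein gene MT2A, rose by 1.82 on the log2 scale, and AL590867.2, the copy of the ribosomal protein gene RPL27A, by 1.17. No other copy passed an adjusted p of 0.05, although several had larger log2 changes. The changes of the copies were centred near 0 and were more widely scattered than those of coding transcripts.

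The 2 calls are 0.398% of the copies, whereas 266 of all 12109 transcripts were called in the authors' deposited table, a share of 2.2% (130 higher, 1.07%, and 136 lower, 1.12%). An adjusted p under 0.01 held for the same number of copies, 2, against 1.52% of all transcripts, and one under 0.10 for 3 copies against 2.81%. Without adjustment, p was under 0.05 for 28 copies (5.58%), 20 higher and 8 lower, compared with 10.3% of all transcripts. A change of at least 2-fold was the more frequent among the copies, at 128 (25.5%; 72 higher and 56 lower), against 10.6% of all transcripts. Large changes were thus common among the copies while small p-values were not, and the large changes were not particular to the copies. Of 214 long non-coding transcripts, 31.3% changed at least 2-fold, 4.21% had an unadjusted p under 0.05 and 0.935% were called. Of 20 unprocessed pseudogenes, which arose by duplication of DNA, 45% changed at least 2-fold, 10% had such a p and none was called.

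The median log2 change of the copies was 0.07 (quartiles −0.41 and 0.55, range −3.80 to 3.04), beside 0.02 over all transcripts. Changes above 0 were found for 262 copies (52.2%; all transcripts 50.8%), changes below 0 for 221, and a change of exactly 0 for 19. The median absolute log2 change was 0.50, against 0.33 over all transcripts and 0.31 over protein-coding ones. It was larger still over long non-coding transcripts (0.63) and unprocessed pseudogenes (0.89). In the plot of change against efficiency, the copies extend over the whole width of the efficiency scale and lie on both sides of 0. The 33 copies annotated as transcribed held no call (all transcripts 2.2%), with a median log2 change of 0.26 and a median knockdown log2 efficiency of 1.35.

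**Figure D1:**
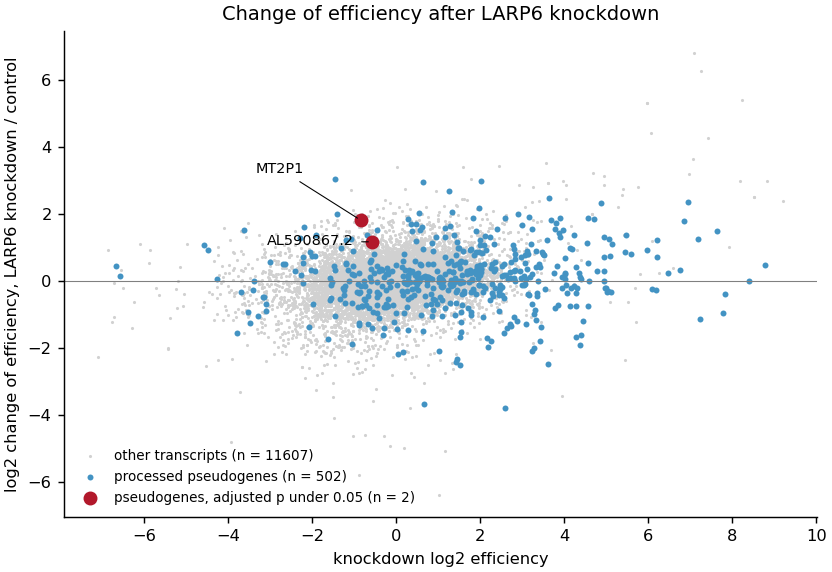
Log2 change of translation efficiency (LARP6 knockdown over control, vertical axis) against knockdown log2 efficiency (horizontal axis) in the authors' deposited table, with 1 point per transcript: 502 processed pseudogenes in blue, the 2 with an adjusted p under 0.05 in red and the other 11607 transcripts in grey. MT2P1 and AL590867.2 lie above 0 at knockdown log2 efficiencies of −0.85 and −0.58, while 75 of the 122 transcripts furthest to the right (the top 1% by efficiency) are pseudogenes.

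MT2P1 had the smallest adjusted p of all copies. Its knockdown log2 efficiency was −0.85, its log2 change 1.82 and its adjusted p 2.0e-14, as listed by the authors' deposited table. The control efficiency derived from these values was −2.68. The source gene MT2A, at 97.3% identity over the 183 bases printed above, is listed by the authors' deposited table with a log2 change of −0.29 (adjusted p = 0.697) and a knockdown log2 efficiency of −2.79. The derived control efficiency of MT2A was −2.49, so that copy and source lay close in the control and the copy lay above its source in the knockdown. The difference between the 2 changes was not tested.

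The other metallothionein transcripts did not pass the threshold. MT1P3, a copy of MT1E at 91.9% identity, stood at a log2 change of 2.68 (adjusted p = 0.114) and a knockdown log2 efficiency of 1.26, as given by the authors' deposited table. The authors' deposited table gives MT1E itself a log2 change of −0.94 (adjusted p = 0.864) and the related transcript MT1L 0.23 (adjusted p = 0.983). Both metallothionein copies had values above 0, and both source genes values below 0.

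AL590867.2 is a copy of RPL27A at 98.7% identity, 447 bases long (chr6:153282287-153282733, minus strand). Its longest open reading frame reached 100.7% of the source's coding length, and whether it was the source's own frame was not checked. The authors' deposited table gives AL590867.2 a log2 change of 1.17, an adjusted p of 0.000185 and a knockdown log2 efficiency of −0.58. The derived control efficiency was −1.74. RPL27A has no entry in the table, so the copy cannot be set against its source. TUBAP2, a copy of the alpha-tubulin gene TUBA1B at 95.8% identity, was the next in p, with a log2 change of 1.31 and an adjusted p of 0.0615 by the authors' deposited table. TUBA1B stood at −0.42 (adjusted p = 0.948) by the authors' deposited table.

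The largest log2 changes belonged to copies whose p-values were not small after adjustment. Among the highest, AC021074.1, a copy of the ribosomal protein gene RPL8 that lies within PCOLCE2 on the same strand, reached a log2 change of 3.04 (adjusted p = 0.205) by the authors' deposited table. For AC092809.3, a copy of ZNF706, the authors' deposited table gives 2.99 (adjusted p = 0.181). By the authors' deposited table GABPAP, a copy of the transcription factor gene GABPA, reached 2.96 (adjusted p = 0.336), and AC060766.3, a copy of the ubiquitin-like modifier gene UFM1, 2.49 (adjusted p = 0.846). The measured sources of these copies had values near or below 0, with log2 changes of 0.08 for RPL8, −0.80 for ZNF706 and −0.22 for UFM1, none of them called.

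At the lower end, SUPT4H1P2, a copy of the gene of a transcription elongation factor subunit, stood at −3.80 (adjusted p = 0.409) by the authors' deposited table. AC087763.1, a copy of the mitochondrial ribosomal protein gene MRPS18C, is listed by the authors' deposited table at −3.69 (adjusted p = 0.180). For TPMTP1, a copy of the thiopurine methyltransferase gene TPMT, the authors' deposited table gives −2.51 (adjusted p = 0.700). By the authors' deposited table HNRNPABP1, from the RNA-binding protein gene HNRNPAB, had −2.49 (adjusted p = 0.590), and SMARCE1P3, from a subunit gene of the SWI/SNF chromatin remodeller, −2.42 (adjusted p = 0.787). These 5 copies had knockdown log2 efficiencies between 0.65 and 3.60, all above the middle of the table.

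Grouped by the function of the source gene, the copies of ribosomal protein genes had the highest median change when all assigned sources were used. With sources taken from symbols only, which leaves 11 of these copies, their median was 0.36, below the medians of 0.47 and 0.40 of the chromatin and glycolysis groups with all sources. The 23 copies had a median log2 change of 0.57, with 19 above 0 (82.6%, against 50.8% of all transcripts). Of them 1 was called (4.35%, against 2.2% of all transcripts), a single copy that says little about the group. An unadjusted p under 0.05 was found for 5 (21.7%, against 10.3% of all transcripts), all 5 of them higher. They ranged from −1.05 for AC007182.2, a copy of RPS24, to 3.04 for AC021074.1. After AL590867.2, the smallest p belonged to AC034236.1, a copy of RPS25, with a log2 change of 1.83 and an adjusted p of 0.156 by the authors' deposited table. Among the others, the authors' deposited table gives RPL4P4 a log2 change of 1.36 (adjusted p = 0.240) beside 1.36 for its source RPL4, and AL031727.1 a change of 1.63 (adjusted p = 0.295) beside 0.32 for its source RPS14.

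The source genes of the ribosomal protein copies were also mostly above 0. For the 18 copies with a measured source, the median log2 change of the source was 0.47, and copy and source had the same sign in 12. Of these sources, RPL37A was called by the authors' deposited table (log2 change 1.32, adjusted p = 0.00252), whereas its copy RPL37AP1 stood at 0.75 with an adjusted p of 0.963. The copies share long identical stretches with their sources, with a median identity of 95.4%, and reads from either may be counted for both; their part in the result was not tested.

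**Figure D2:**
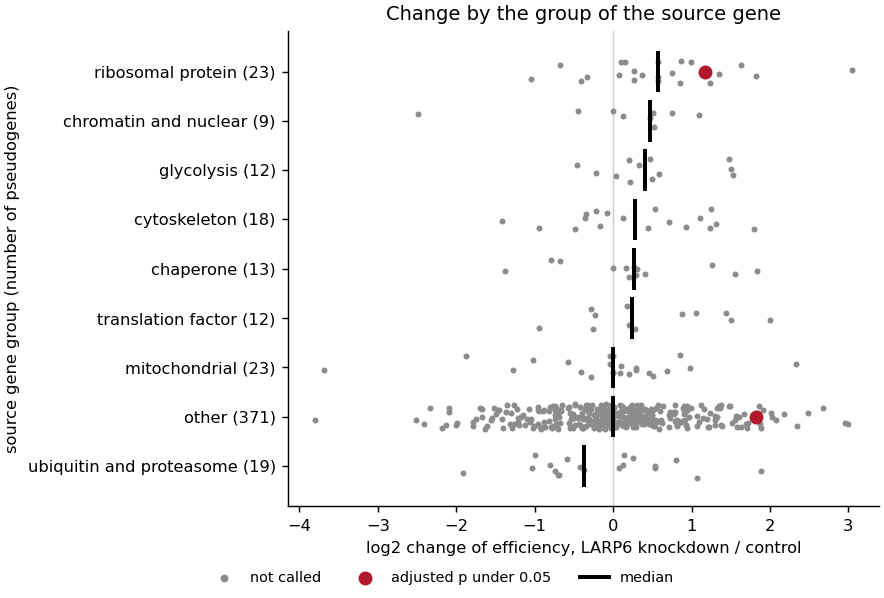
Log2 change of translation efficiency (LARP6 knockdown over control, horizontal axis) of the pseudogene transcripts in the authors' deposited table, by the functional group of the source gene (vertical axis, number of copies in brackets). Each point is 1 copy, spread vertically for legibility, and black bars are medians, which run from −0.37 for ubiquitin and proteasome genes to 0.57 for ribosomal protein genes. The single copy of an iron and redox gene and the copy with no source are left out.

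In the 7 groups that follow, from glycolysis to ubiquitin and proteasome, no copy was called, where the share was 2.2% of all transcripts and 0.398% of all copies. With 9 to 23 copies per group, the absence of calls is no result about these groups. The counts above 0 given for them stand beside a share of 50.8% over all transcripts. The 12 copies of glycolytic genes had a median log2 change of 0.40, with 10 above 0. The authors' deposited table lists among them HK2P1 from the hexokinase gene HK2 (log2 change 1.53, adjusted p = 0.435) and ENO1P1 from the enolase gene ENO1 (0.59, adjusted p = 0.316). ENO1P1 overlaps an exon of the coding gene EDARADD on its strand. LDHAP4, from the lactate dehydrogenase gene LDHA, stood at 1.51 (adjusted p = 0.823) by the authors' deposited table. Of the sources, the authors' deposited table gives HK2 a log2 change of 1.21 (adjusted p = 0.802), ENO1 0.35 (adjusted p = 0.151) and LDHA −0.34 (adjusted p = 0.883), so that 1 of these sources lay on the other side of 0 from its copy.

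The 13 copies of chaperone genes had a median log2 change of 0.27, with 9 above 0. HSPA8P1, from the gene of the constitutive heat shock protein HSC70, stood at 1.84 (adjusted p = 0.288) by the authors' deposited table, HSPB1P2, from the small heat shock protein gene HSPB1, at −1.38 (adjusted p = 0.299), and DNAJA1P3, from a co-chaperone gene, at 1.55 (adjusted p = 0.590). The 18 copies of cytoskeletal genes had a median of 0.28 with 10 above 0. Beside TUBAP2, the authors' deposited table lists among them AF201337.1, from the tropomyosin gene TPM4 (1.25, adjusted p = 0.323), and PFN1P1, from the profilin gene PFN1 (0.53, adjusted p = 0.459).

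The 12 copies of translation factor genes had a median log2 change of 0.24, with 8 above 0. EEF1DP1, from a subunit gene of elongation factor 1, stood close to 2 (adjusted p = 0.443) by the authors' deposited table, EIF3LP1, from a subunit gene of initiation factor 3, at 1.51 (adjusted p = 0.892), and AC008038.1, from the elongation factor gene EEF1G and within CHCHD3, at 1.06 (adjusted p = 0.791). The 9 copies of genes of chromatin and nuclear proteins had a median of 0.47 with 6 above 0 and 2 below 0. The lowest of the 9 was HNRNPABP1, named above, at −2.49. The authors' deposited table gives for HNRNPDP1, from an RNA-binding protein gene, 1.10 (adjusted p = 0.909) and for RANP1, from the nuclear transport GTPase gene RAN, 0.75 (adjusted p = 0.866). Of the 23 copies of genes of mitochondrial proteins, 5 changed at least 2-fold, 1 higher and 4 lower. The lowest was AC087763.1, named above, at −3.69. All 23 copies together had a median of 0, with 11 above 0 and 3 at 0. Among them the authors' deposited table lists ATP5MC2P4, from an ATP synthase subunit gene (0.98, adjusted p = 0.787), and SLC25A38P1, from a mitochondrial carrier gene (−1.88, adjusted p = 0.798).

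The 19 copies of ubiquitin and proteasome genes were the only group of at least 3 copies with a median below 0, at −0.37, with 9 above 0. AC023512.1 and SKP1P1 both come from SKP1, a subunit gene of SCF ubiquitin ligases, and stood at 1.06 (adjusted p = 0.529) and −1.04 (adjusted p = 0.877) by the authors' deposited table. UBE2D3P1 and UBE2MP1, from genes of ubiquitin-conjugating enzymes, are listed by the authors' deposited table at −0.74 (adjusted p = 0.803) and −0.71 (adjusted p = 0.791). The 371 copies from other genes had a median of 0, with 179 above 0. MT2P1 was the called member, which is 0.27% of them, against 2.2% of all transcripts.

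The change of a copy followed that of its source only weakly. For 441 copies the source gene was also measured, by 412 genes, and 7 of these genes were called, 6 of them higher. These calls are 1.69% of the 414 entries of source genes, against 2.2% of all transcripts (130 higher and 136 lower). So few calls say little about the direction in the source genes. The copy's log2 change minus that of the source had a median of −0.02 (quartiles −0.61 and 0.55). The signs were the same in 249 pairs and opposite in 174, with a member of the pair at 0 in 18. Across the 441 pairs the changes had a Spearman correlation of 0.16 and a Pearson correlation of 0.10, where both members of a pair come from the same libraries and may share reads. ACTB, the beta-actin gene, was called by the authors' deposited table (log2 change 0.67, adjusted p = 9.3e-07), and its copy ACTBP2 stood at 0.44 (adjusted p = 0.981).

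The final p-value of the table is the larger of the p-values of 2 methods, and the methods picked mostly different copies. After Benjamini-Hochberg adjustment over all transcripts, method 1 alone passed 10 copies (background 3.77% of all transcripts) and method 2 alone 9 (background 2.82%), with 2 in common. The 8 copies passed by method 1 only were all higher and had knockdown log2 efficiencies between −1.92 and 1.26. They were TUBAP2, MT1P3, AC021074.1, RPL4P4, HSPA8P1, AF201337.1, GABPAP and HK2P1. The 7 copies passed by method 2 only had efficiencies between 3.44 and 7.79, with 4 of them higher. These were AC034236.1, HSPB1P2, AC020612.1 (from PARK7), AC116917.1 (from the tropomyosin gene TPM2), AC063952.2 (from PTOV1), TUBBP6 and PKMP5. Over all transcripts, the overlap of the methods was not examined, nor were the directions and efficiencies of those passed by 1 method alone. The small overlap, the directions and the ranges given here for 8 and 7 copies can therefore not be called particular to the copies.

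The level of efficiency set the copies apart more than its change. In the knockdown cells the copies had a median log2 efficiency of 1.40 (quartiles −0.12 and 2.81, range −6.68 to 8.77), which is a linear ratio of 2.65 on the deposited scale, and 371 (73.9%) lay above 0. Protein-coding transcripts had a median of −0.03, and the 414 entries of the copies' own source genes −1.26. In the control cells, the median of the derived log2 efficiency was 1.22 for the copies and 0.0025 for all transcripts. Long non-coding transcripts (n = 214) had a median knockdown log2 efficiency of 0.17 and unprocessed pseudogenes (n = 20), which arose by duplication of DNA, 0.78.

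The copies filled the upper end of the efficiency scale. Of the 122 transcripts in the top 1%, with knockdown log2 efficiencies of at least 3.64 in the authors' deposited table, 75 (61.5%) were processed pseudogenes. They also made up 11 of the 122 (9.02%) in the bottom 1%, at −3.40 or lower. The sources used here do not say how reads matching several places were assigned in either kind of library. The values therefore cannot be read as protein made from the copies.

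**Figure D3:**
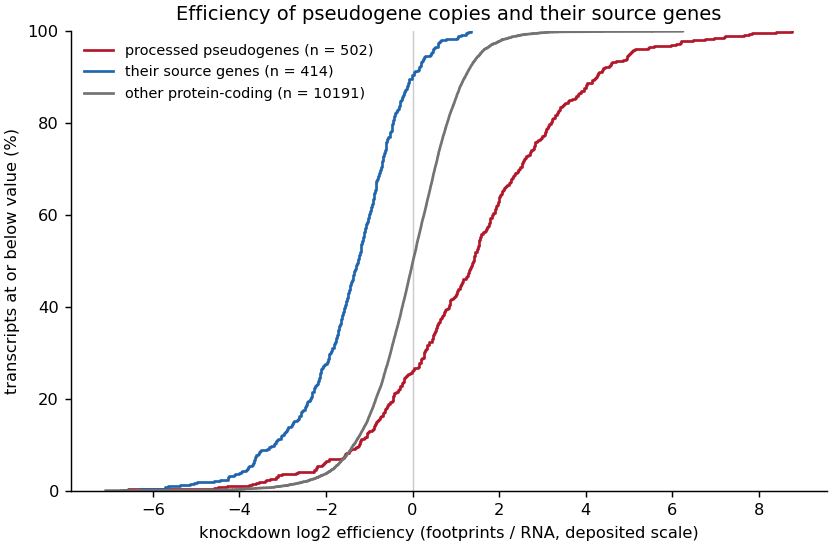
Share of transcripts at or below each knockdown log2 efficiency (footprints relative to RNA, horizontal axis) in the authors' deposited table, for 502 processed pseudogenes, the 414 entries of their source genes and 10191 other protein-coding entries. The median is 1.40 for the pseudogenes, −1.26 for their source genes and 0.01 for the other coding transcripts.

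The highest knockdown log2 efficiencies were 8.77 for ALDOAP1, a copy of the glycolytic aldolase gene ALDOA, 8.41 for COX7A2P2, from a cytochrome c oxidase subunit gene, and 7.84 for RPS27P27, from a gene of the small ribosomal subunit, in the authors' deposited table. Their log2 changes were 0.47, 0 and −0.40, none called. The lowest were −6.68 for ACTBP2, −6.57 for RPL24P4, from a gene of the large ribosomal subunit, and −4.58 for AC008038.1. Copies of ribosomal protein genes thus appear at both ends, with 10 of 23 above 0 and a median of −0.58.

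Nearly every copy had a higher efficiency than its source gene. Of the 441 copies with a measured source, 426 (96.6%) were above it in the knockdown and 417 in the derived control values. The median difference was 2.96 on the log2 scale (7.79-fold; quartiles 1.81 and 4.26). ALDOA, for example, had a knockdown log2 efficiency of −0.48 in the authors' deposited table, against 8.77 for ALDOAP1. Copy and source efficiencies had a Spearman correlation of 0.42 and a Pearson correlation of 0.43 across the 441 pairs, which share libraries and possibly reads.

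The 15 copies below their source included ACTBP2, with −6.68 against −3.31 for ACTB, and BZW1P2, with −3.10 against −0.57 for BZW1, in the authors' deposited table. TECRP1 and AC022149.1, which are identical to TECR and ITGB1 over their aligned bases, were at −1.34 and −1.26 while their sources were at 0.47 and 0.61. The plot of pseudogenes against their sources shows the efficiencies almost wholly above the line of equal values and the changes on both sides of it.

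**Figure D4:**
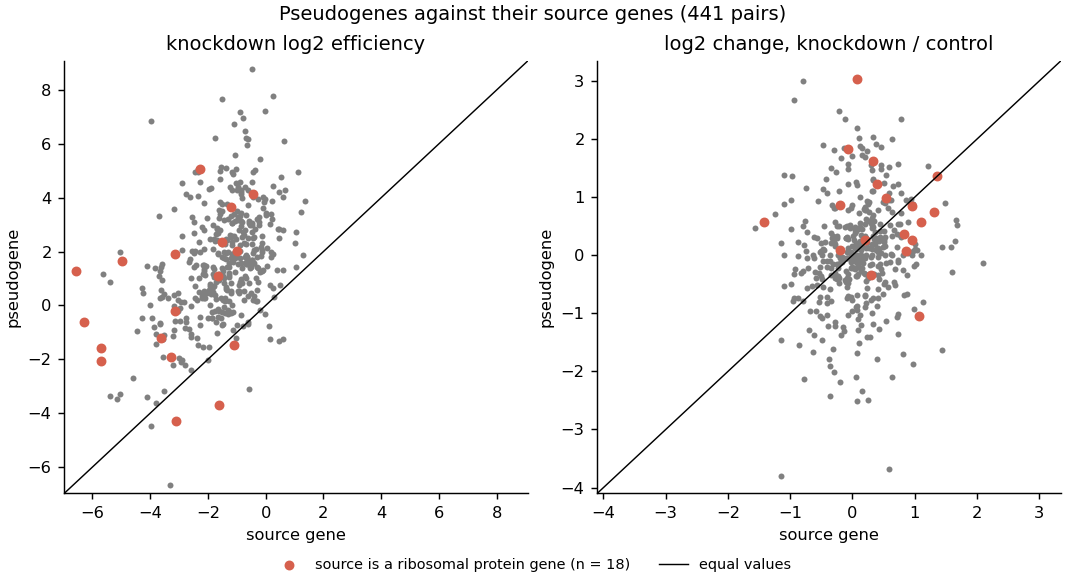
Values of 441 pseudogene copies (vertical axes) against those of their source genes (horizontal axes) in the authors' deposited table: knockdown log2 efficiency on the left, and log2 change of efficiency, LARP6 knockdown over control, on the right. Red points are the 18 copies of ribosomal protein genes and the line marks equal values; 426 points of the left panel lie above the line.

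Copies closer to their source gene had lower efficiencies. The 44 copies under 90% identity had a median knockdown log2 efficiency of 3.17, the 227 copies from 90% to under 95% had 2.32, and the 169 from 95% to under 98% had 0.56. The 39 copies from 98% to under 99% had a median of −0.74 and the 22 at 99% or more −1.08, below the median of all transcripts. Across 501 copies identity and efficiency had a Spearman correlation of −0.63 (Pearson −0.48), and the derived control efficiency gave −0.62. The longest stretch without a difference gave −0.66, while length (−0.05) and GC content (0.01) followed efficiency little.

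The same relation was seen in the 7 subsets examined. The Spearman correlation of identity and efficiency was −0.61 among 268 copies shorter than 1000 bases and −0.67 among 233 of 1000 bases or longer. It was −0.63 among the 461 copies with a single exon and also among the 425 lying outside coding genes of the same strand. Copies above their source numbered 42 of 42 under 90% identity, 139 of 145 from 95% to under 98%, and 4 of 8 at 99% or more. All these points share the same libraries, and which reads were counted for a copy may itself depend on its identity; that part in the result was not tested.

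Some copies departed from this order. IPO8P1 (66.3%), NAP1L4P3 (68.1%) and HTATSF1P2 (70.5%), the copies least like their assigned sources, had knockdown log2 efficiencies of 0.19, 0.55 and 0.75 in the authors' deposited table. Their sources were taken from the symbols, and their longest stretches without a difference were 19, 17 and 17 bases. The best alignment named the same gene for 270 of all 277 symbol assignments. The part of the assignment in these 3 identities was not tested. At the other end, AC211486.4, whose 113 bases are identical to CASTOR2, had 0.27. The log2 change of efficiency had a Spearman correlation of 0.03 with identity, and its median absolute value was between 0.45 and 0.54 in all 5 ranges of identity. The share of copies with a change of at least 2-fold was 36.4%, 26.4%, 23.7%, 20.5% and 18.2% from the lowest range of identity to the highest, a decline that was not tested.

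**Figure D5:**
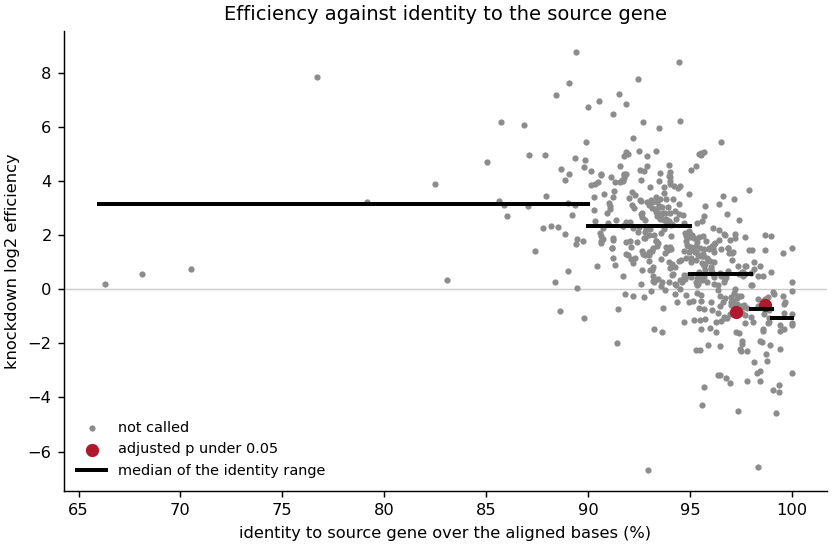
Knockdown log2 efficiency in the authors' deposited table (vertical axis) against percent identity to the source gene (horizontal axis) for 501 pseudogene copies, with the median of each identity range as a black line. The medians fall from 3.17 under 90% identity to −1.08 at 99% or more, and the 2 called copies, in red, lie at −0.85 and −0.58, at 97.3% and 98.7% identity.

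Copies of the same gene showed this difference within pairs. For 29 source genes 2 copies were measured, and in 22 of them the less identical copy had the higher efficiency. The median absolute difference over the 29 pairs was 2.10 on the log2 scale. Near ties in identity were counted as ordered, so that the 22 include the ALDOA copies, at 89.387% and 89.416%. ANXA2P3 (91.3% identity), whose 8 differences in 90 bases are printed above, had a knockdown log2 efficiency of 0.89 in the authors' deposited table, against −3.38 for ANXA2P2 (98.4%). BZW1P1 (93.2%) had 0.84 against −3.10 for BZW1P2 (100%). Both pairs, which were chosen after their values were seen, order as their printed differences do. Other pairs ran the other way, such as the NAP1L4 copies, with 0.55 for NAP1L4P3 (68.1%) and 3.32 for NAP1L4P1 (92.5%).

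The widest gap was between the beta-tubulin copies TUBBP6 (91.8% identity), at 6.85, and TUBBP1 (97.4%), at −4.49, in the authors' deposited table. The SKP1 copies were at 1.99 for AC023512.1 (93.0%) and −3.29 for SKP1P1 (96.7%). Copies of like identity also lay apart: ALDOAP1 and ALDOAP2, both at 89.4%, had 8.77 and 1.69, and the copies of the pyruvate kinase gene PKM, PKMP5 (89.0%) and PKMP1 (89.7%), had 7.65 and 1.80. The log2 changes of the 2 copies had the same sign in 15 of the 29 pairs and opposite signs in 13, with a copy at 0 in 1.

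Copies with a long open reading frame had lower efficiencies. The longest frame was sought in every reading frame, also where it was still open at the copy's end. Whether it was the source's own frame was not checked. In 85 copies the longest frame from an ATG reached at least 90% of the source's coding length, and their median knockdown log2 efficiency was 0.27. In 272 copies it reached less than 50%, and the median was 1.71. These copies also differed in identity, with medians of 97.3% and 93.6%, and the part of identity in this difference was not tested. The Spearman correlation of frame length and efficiency was −0.22 across 501 copies.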

How the data were processed

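RNA-seq and ribosome profiling libraries of control and LARP6 knockdown cells were compared by the authors, 2 libraries per group. Per the labels' protocols, RNA was extracted with Trizol, and footprints were prepared with cycloheximide, RNase I and ultracentrifugation. Tools and builds named by the submitters' processing notes are Bowtie, cutadapt, GRCh38 and hg38, without roles or versions. Not given in the sources used here are the RNA selection, the handling of reads that match several places, and the program that compared efficiencies. Per the file headers, the authors' deposited values are log2 changes of efficiency from 2 methods with a final log2 change, the log2 efficiency of the knockdown, and p-values: 1 per method, a final one and an adjusted one. The deposited final p-value equals the larger of both in all 12109 transcripts, and the adjusted p-value its Benjamini-Hochberg adjustment within 6.35e-15. No test was run here beyond Benjamini-Hochberg adjustment of each method's p-value alone; medians, counts and correlations are descriptions.

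The control log2 efficiency was derived as the knockdown value minus the log2 change of method 2. Transcripts were matched to GENCODE release 29. The source gene was taken from the symbol where the part before P and digits names a coding gene, otherwise from the best blastn hit (version 2.17.0, e-value 1e-10) among coding transcripts; for 270 of the 277 symbol assignments the best hit was the same gene. Identity is over the aligned bases. Tables were made with Python 3.11.15, pandas 2.3.3 and numpy 2.4.6, plots with matplotlib 3.10.9, and the adjustment and alignment were tested on simulated data.

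Named genes were the called copies, the 5 highest and 5 lowest changes, the 3 highest and 3 lowest efficiencies, up to 3 smallest p-values in each source group of at least 3 copies, the 3 nearest to and 3 farthest from their source, and the sources of these. Other names (MT1L, RPL4P4, AL031727.1, AC007182.2, RPL37AP1, ANXA2, BZW1, TUBB, SKP1P1, ALDOAP2, NAP1L4P1, PKM and the copies passed by 1 method) were chosen after their values were seen. Groups follow symbol lists; in the tropomyosin pattern a digit was required so that TPMT did not enter. The members and lists were chosen with earlier results of these data known. Alternatives were other thresholds, each method alone, and other definitions of members and sources.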

Additional observations from a re-analysis of the deposited data

How the results depend on the processing

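Under 9 alternatives the number of called copies stayed between 2 and 3, except with method 1 alone (10) and method 2 alone (9), where the larger of both p-values is no longer required. The median log2 change (0.07 to 0.12), the median absolute log2 change (0.48 to 0.51) and the median difference from the source gene (−0.09 to 0.01) moved by less than 0.1 under every alternative run for them. The median of the ribosomal protein copies was 0.36 with sources taken from symbols only, against 0.57, and stayed within 0.1 under the 6 other alternatives. The median knockdown log2 efficiency of 1.40 became 1.22 in the derived control values, −0.88 among copies at least 98% identical to their source and 1.27 among copies of 1000 bases or longer, alternatives that were chosen after seeing the data and describe other cells or fewer copies; it stayed within 0.1 under the 5 others. No paired analysis was possible because the table combines the libraries of a group; the replicate block and leaving out a library were therefore not run, and no depth is known.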
